A study of Mus musculus with 12 samples.

Results

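Imprinted microRNAs (miRNAs) of the mouse Gnas, Mest, Igf2 and H19 loci were examined in small RNA sequencing data from CA1, a subfield of the hippocampus. They were chosen by name as miR-296 and miR-298 (Gnas locus), miR-335 (Mest), miR-483 (Igf2) and miR-675 (H19), in any arm. Of the 5 names, 3 have a row in the miRNA table, which gives 5 rows of 495: miR-335-3p, miR-335-5p, miR-298, miR-296-5p and miR-296-3p. The other 2, miR-483 and miR-675, have no row there, and their hairpins were looked up in a table of all RNAs. The study compared 6 Control libraries with 6 Kat2a cKO libraries. The Control mice were of genotype Kat2afl/fl and the cKO mice of genotype Kat2afl/fl ; CamKIIα-cre+, all C57BL/6J and aged 3 to 5 months. Both groups carry the floxed Kat2a allele, and the cKO mice also carry the Cre transgene, whose promoter is active in excitatory forebrain neurons, so other cells of the dissected tissue keep the gene. Kat2a encodes a histone acetyltransferase. The labels give each library as a sample of its own and do not say whether tissue was pooled.

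An imprinted gene is expressed mainly from the copy inherited from one parent, under the control of a region whose DNA methylation is set in the germ line. In mice, Mest, Igf2 and the antisense RNA Nespas of the Gnas locus are expressed from the paternal copy, and the long non-coding RNA H19 from the maternal copy; each locus holds miRNA genes. A miRNA hairpin is cut into a 5p and a 3p arm, either of which can be loaded into an Argonaute protein, and the seed (bases 2 to 8) sets most of the target choice. miR-675 is excised from H19 itself and is known in mice for restraining growth of the placenta.

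The mature sequences that the counted rows carry are shown first, since the arm ratios below depend on which arm is counted. They come from RefSeq on GRCm38.p6, are written 5′ to 3′ with the seed in capitals, and all 10 mature sequences of the 5 hairpins were matched. The miR-298 row names no arm, so both arms are given.
miR-335-5p: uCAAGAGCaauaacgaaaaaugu
miR-335-3p: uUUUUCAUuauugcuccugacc
miR-298-5p: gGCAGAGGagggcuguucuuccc
miR-298-3p: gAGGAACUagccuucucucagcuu
miR-296-5p: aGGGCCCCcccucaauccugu
miR-296-3p: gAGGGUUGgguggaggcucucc

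The 10 seeds differ from each other, and none is shared with another of the 1679 mature mouse miRNAs in the RefSeq table, where 72.1% of miRNAs have a seed of their own. The rows therefore cannot be grouped into seed families. The GC content of the arms ranges from 30.4% in miR-335-5p and 36.4% in miR-335-3p to 66.7% in miR-296-5p and 68.2% in miR-296-3p.

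The hairpins show how the arms lie on their precursor, with the mature arms in capitals and the loop and flanks in lower case.
Mir335: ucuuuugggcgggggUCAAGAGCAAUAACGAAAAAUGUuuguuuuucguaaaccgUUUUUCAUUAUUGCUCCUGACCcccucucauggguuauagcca
Mir296: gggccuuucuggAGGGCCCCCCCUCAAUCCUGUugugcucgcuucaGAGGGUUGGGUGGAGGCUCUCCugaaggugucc
Mir298: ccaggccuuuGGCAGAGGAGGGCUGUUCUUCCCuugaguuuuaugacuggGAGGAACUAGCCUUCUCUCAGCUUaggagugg

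Mir335 lies on the plus strand at chr6:30741299-30741396 of GRCm38.p6, in an intron of all 7 annotated Mest transcripts that span it. Mir296 (chr2:174267047-174267125) and Mir298 (chr2:174267504-174267585) lie 378 bases apart on the minus strand. Both lie beyond the annotated end of Nespas, which runs on the same strand, by 14.1 kb and 13.7 kb, and no annotated Gnas or Nespas transcript spans them. Mir483, at chr7:142654924-142654996 on the minus strand, lies in an intron of all 7 Igf2 transcripts that span it. Mir675, at chr7:142577064-142577147 on the same strand, lies in an exon of 3 of the 4 H19 transcripts that span it and in an intron of the other, 77.8 kb from Mir483.

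Depth ran from 2449121 to 10116062 counts per library in the miRNA table and from 1119938 to 4464600 in the table of all RNAs. In the miRNA table, Control 1, Control 2, cKO 1 and cKO 3 stood apart: on the first principal component of the other 489 tested miRNAs, which held 46.6% of the variance, they lay between 8.28 and 8.99 and the other 8 libraries between -6.79 and -0.32. Their totals ran from 2449121 to 5524979 counts, against 5138526 to 10116062 in the other libraries. Values are therefore given with and without them, as an alternative chosen after the data were seen. No 2 libraries agreed within sampling noise. Kat2a itself had 0 to 8 reads per Control library and 0 to 5 per cKO library, too few to check the labels. Among the marker miRNAs, those of neurons summed to between 56283.1 and 76004.9 CPM (counts scaled to a common library total with TMM factors, the usual per-library unit) in Control and between 59350.8 and 65710.3 in cKO, with 4 of 5 tested. The other, miR-124, was not tested under its listed name and is left out of these sums.

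The 5 rows together took 0.103% ± 0.0201 (SD, n = 6) of miRNA reads in Control and 0.097% ± 0.00755 (SD, n = 6) in cKO. miR-335-3p was the most abundant, at rank 119 of 494 tested miRNAs by mean CPM, followed by miR-335-5p (149), miR-298 (154), miR-296-5p (295) and miR-296-3p (420). Over 12 libraries the mean level of miR-335-3p was 16 times that of miR-296-5p and 112 times that of miR-296-3p. miR-335-5p and miR-298, at 260 ± 75.6 and 242 ± 54.9 CPM (SD, n = 12), are neighbours in this order and lay within each other's spread. Read counts of different miRNAs also depend on how each is ligated and amplified, which these levels do not correct.

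None of the 5 rows differed between cKO and Control at an adjusted p under 0.05 (edgeR quasi-likelihood test, two-sided, Benjamini-Hochberg adjustment over 494 miRNAs). The background was 1 of 494 miRNAs called, or 0.202%. The fitted level was lower in cKO for 4 of the 5 and higher for miR-335-3p, with a median log2 fold change of -0.28 against -0.00 over all tested miRNAs, of which 251 were lower and 243 higher. At an unadjusted p under 0.05 lay 1 member, miR-298, against 21 of the 494 tested (4.25%). The groups overlapped for all 5 rows, and did not for 2 of the 494 tested (0.405%). The DESeq2 alternative also called none of the 5.

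miR-335, which sits in Mest and has been studied in human tumour cells as a regulator of migration, is represented by both arms. The level of miR-335-3p in Control ranged from 352 to 534 CPM with a median of 455, and in cKO from 384 to 549 CPM with a median of 477. The groups overlapped over most of their range. The means were 450 ± 77.4 and 468 ± 65.4 CPM (SD, n = 6 each), and the fitted log2 fold change was 0.06 ± 0.15 (SE), with a 95% interval of -0.26 to 0.37 (edgeR adjusted p = 0.997). Without the 4 libraries that stand apart it was -0.07 (95% interval -0.34 to 0.20), and without Control 2 alone -0.01.

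The 5p arm spread more widely. miR-335-5p ranged from 122 to 343 CPM in Control, with a median of 312, and from 140 to 335.3 CPM in cKO, with a median of 246. Control 1 (122 CPM) and cKO 3 (140 CPM) were the lowest libraries, below 211 CPM, the lowest of the 8 libraries that do not stand apart. The groups overlapped, at mean levels of 273 ± 85.6 and 248 ± 69.5 CPM (SD, n = 6 per group), and the fitted log2 fold change was -0.14 ± 0.25 (SE; 95% interval -0.68 to 0.40, edgeR adjusted p = 0.997). Without the 4 libraries the log2 fold change was -0.24 (95% interval -0.56 to 0.09), and leaving out 1 library at a time it ran from -0.30 (without Control 1) to -0.02 (without cKO 3).

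miR-298 had the smallest unadjusted p of the members. Its level ranged from 217 to 342 CPM in Control, with a median of 271, and from 167 to 274 CPM in cKO, with a median of 200. The groups overlapped, and 5 of 6 cKO libraries lay below the Control mean. Control 2 (217 CPM), Control 3 (228) and Control 4 (239) also lay below it. The Control mean was 272 ± 51 CPM and the cKO mean 211 ± 42.3 CPM (SD, n = 6 per group), and the fitted log2 fold change was -0.37 ± 0.17 (SE; 95% interval -0.72 to -0.01). The unadjusted p of 0.0452 became an adjusted p of 0.997 in edgeR, so miR-298 was not called. Without the 4 libraries the log2 fold change was -0.35 (95% interval -0.73 to 0.02).

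miR-296, known in human endothelial cells for a part in growth factor receptor signalling, was counted mostly as its 5p arm. miR-296-5p ranged from 14.5 to 61.2 CPM in Control, with a median of 21.6, and from 16.4 to 40.6 CPM in cKO, with a median of 24.6. Its 4 highest libraries were Control 1 (61.2 CPM), Control 2 (54.1), cKO 1 (40.6) and cKO 3 (32.9), and the other 8 lay between 14.5 and 29.3 CPM. These are the 4 libraries that stand apart; they were the highest 4 for 85 of the 494 tested miRNAs (17.2%). The coefficient of variation over 12 libraries was 0.547, and 94.7% of tested miRNAs had a smaller one.

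The Control mean of miR-296-5p, 31.6 ± 20.7 CPM, and the cKO mean, 25.9 ± 9.92 CPM (SD, n = 6 per group), differed by less than the spread between libraries. The log2 fold change was -0.28 ± 0.38 (SE; 95% interval -1.10 to 0.54, edgeR adjusted p = 0.997). Without the 4 libraries it was 0.15 (95% interval -0.35 to 0.66), and without Control 1 alone it was 0.02.

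miR-296-3p was measured from 4 to 48 reads per library. It ranged from 3.34 to 6.58 CPM in Control, with a median of 4.54, and from 1.73 to 4.51 CPM in cKO, with a median of 3.44. All 6 cKO libraries lay below the Control mean. The same held for every Control library but Control 1 (5.29 CPM) and Control 2 (6.58 CPM), which stand apart. The groups overlapped. The means were 4.79 ± 1.08 and 3.38 ± 0.974 CPM (SD, n = 6 each), with a log2 fold change of -0.41 ± 0.21 (SE; 95% interval -0.87 to 0.04; unadjusted p = 0.0703, adjusted p = 0.997, edgeR). Without the 4 libraries the log2 fold change was -0.17 (95% interval -0.60 to 0.27).

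**Figure D1:**
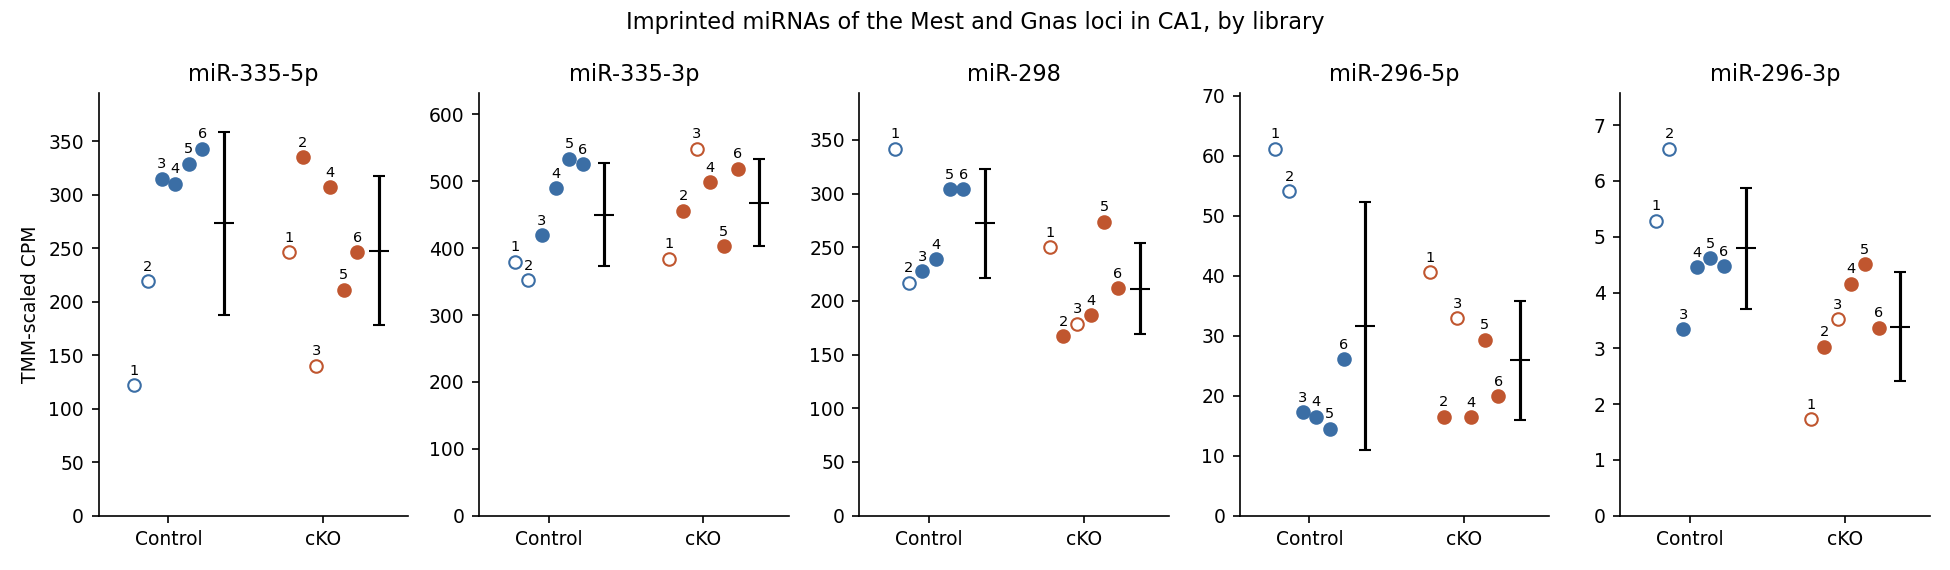
Level of each of the 5 rows (TMM-scaled CPM, linear axis from 0) in 6 Control and 6 cKO libraries, numbered by replicate. Open circles are Control 1, Control 2, cKO 1 and cKO 3, and bars are the mean ± SD of all 6; miR-296-5p is highest in the open circles, from 32.9 to 61.2 CPM, and the groups overlap for every row.

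Ratios of rows within a library do not depend on its total, and 3 were compared between the groups by an exact two-sided permutation test over all assignments of the 12 libraries. For miR-335, 37% ± 6.42 of reads of both arms were 5p in Control and 34.4% ± 7.77 in cKO (SD, n = 6 each). The share was 24.4% in Control 1 (exact 95% binomial interval 22.5% to 26.3%) and 20.3% in cKO 3 (19% to 21.7%), while the other 10 libraries lay between 32.2% and 42.9%. Thus 1 library of each group had a lower 5p share than all the others. The log2 ratio of 5p to 3p differed by -0.18 between cKO and Control (exact permutation p = 0.513, Benjamini-Hochberg adjusted p = 0.617 over the 3 ratios). The difference was -0.35 without Control 1 and 0.03 without cKO 3, and -0.19 without the 4 libraries that stand apart (exact permutation p = 0.2).

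For miR-296 the 5p arm took 84.2% ± 6.12 of reads in Control and 87.1% ± 5.5 in cKO (SD, n = 6 each). The lowest share was 75.8% in Control 5, and the highest was 95.9% in cKO 1, from 98 reads of which 4 were 3p (exact 95% binomial interval 89.9% to 98.9%). The log2 ratio of 5p to 3p was higher in cKO by 0.39 (exact permutation p = 0.42, adjusted p = 0.617). The difference was 0.08 without cKO 1 and 0.59 without Control 1, and 0.31 without the 4 libraries that stand apart (exact permutation p = 0.229). The 5p arm was thus the larger in all 12 libraries for miR-296, and the 3p arm in all 12 for miR-335.

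Mir298 and Mir296 are neighbours, and the ratio of their counts (both arms of miR-296) ranged from 3.57 to 15.9 in Control, with a median of 10.5, and from 4.89 to 9.11 in cKO, with a median of 8.32. The 4 libraries that stand apart had the lowest ratios. The log2 ratio differed by -0.19 between cKO and Control (exact permutation p = 0.617, adjusted p = 0.617). In the 8 other libraries the groups did not overlap: 4 Control libraries lay between 9.92 and 15.9 and 4 cKO libraries between 8.09 and 9.11, a log2 difference of -0.45. Leaving out 1 of all 12 libraries at a time, the difference ran from -0.44 (without Control 2) to -0.01 (without Control 5). With the 4 left out, the exact permutation p of 0.0286 is the smallest that 4 against 4 can give, and became 0.0857 after adjustment over the 3 ratios. Leaving out those 4 libraries was chosen after the values were seen.

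**Figure D2:**
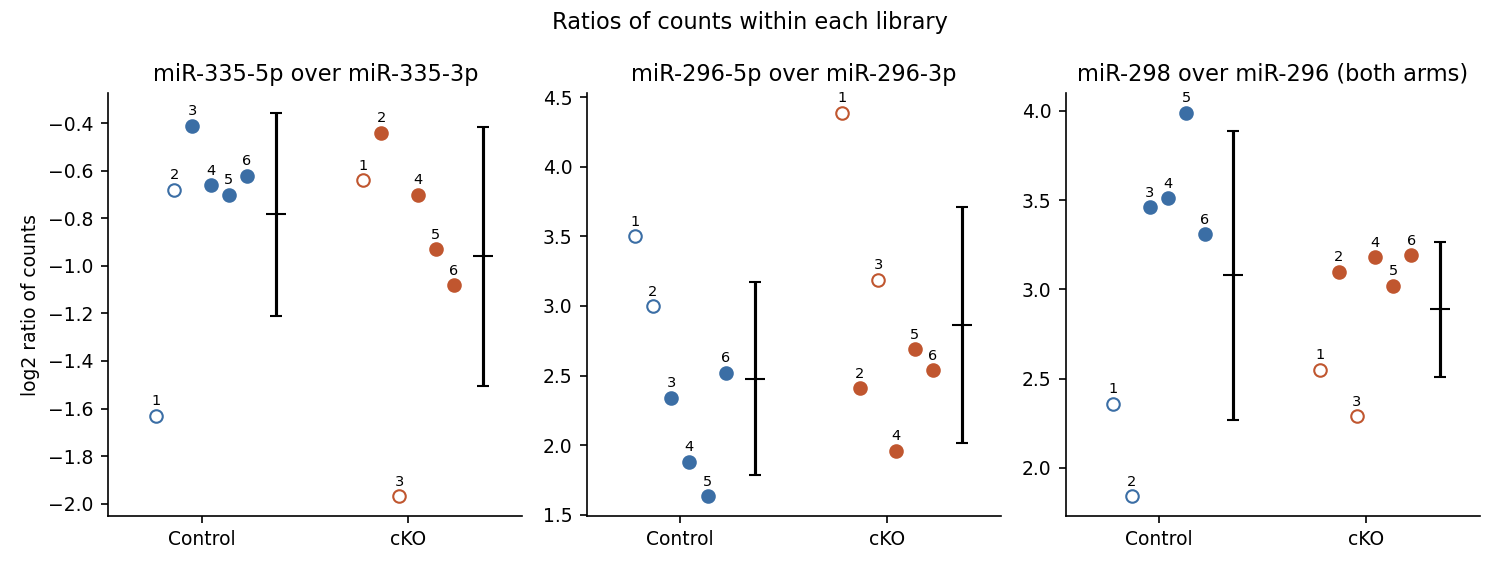
Log2 ratio of counts in each library: miR-335-5p over miR-335-3p, miR-296-5p over miR-296-3p, and miR-298 over both arms of miR-296; bars are the mean ± SD of 6 libraries and open circles the 4 libraries that stand apart. Control 1 and cKO 3 lie low in the first panel (-1.63 and -1.97), and in the last panel the open circles lie below all filled ones.

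The profile of each row over 12 libraries was set beside those of the other 493 tested miRNAs by the root mean square difference of centred log2 CPM, for rows with a mean of 10 CPM or more. The nearest to miR-335-3p were miR-130b (0.16) and miR-708 (0.18), against a median of 0.42. Its own 5p arm lay at 0.45, at position 292 of 493, while from miR-335-5p the 3p arm, at the same distance, took position 126. The nearest to miR-335-5p were miR-376c (0.18) and miR-369-3p (0.19), 2 miRNAs of the imprinted Dlk1-Dio3 cluster, against a median of 0.59. How many of the 493 belong to that cluster was not counted. miR-298 lay nearest to miR-188-3p (0.21) and miR-221 (0.24), against a median of 0.48. Its genomic neighbour's arms were at 0.44 (miR-296-3p, position 198) and 0.65 (miR-296-5p, position 432). The nearest to miR-296-5p were miR-3102-3p.2 and let-7b*, both at 0.34 against a median of 0.74. From miR-296-5p, its own 3p arm was at 0.73 (position 244) and miR-298 at 0.65 (position 178). These distances share library, depth and base composition and are descriptions. They were not taken again without the 4 libraries that stand apart.

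The table of all RNAs counts reads per transcript and lists the hairpins by gene. The column headers give its groups but no replicate numbers, so its libraries are lettered a to f within a group, in column order. The groups follow one another over its columns in the same order as in the miRNA table. Depths also rank alike within each group, lowest in Control b and Control 2 and in cKO a and cKO 1. By column order a to f would be replicates 1 to 6, and Control a, Control b, cKO a and cKO c those that stand apart. The labels do not state this match, and no fit without these libraries together was run here. The table of all RNAs gave 7984 reads for Mir335, 6862 for Mir298 and 337 for Mir296. These are 14.7%, 38.6% and 15.6% of the reads that the miRNA table gave to the same hairpins. Both tables count the same small RNA libraries, so the hairpin rows are not a separate measurement. Their reads cannot be told apart here from those of the mature miRNAs. It also gave 181 reads to Mir483, the hairpin in Igf2, which has no row in the miRNA table. Reads counted per hairpin do not show whether either mature arm of miR-483 was present. Why miR-483 has no row in the miRNA table was not tested. Mir675 had 0 reads in all 12 libraries, which allows a level of up to 0.672 to 2.68 unscaled CPM in a library and 0.101 over all 29687291 reads. This is a limit of counting error only.

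None of the 4 hairpin rows with reads was called (edgeR, 1846 rows tested, percentage called 0, with 81 rows or 4.39% at an unadjusted p under 0.05), and DESeq2 called none of them. Mir335 ranged from 151 to 352 CPM in Control and from 173 to 333 CPM in cKO, with a log2 fold change of -0.14 ± 0.26 (SE, 95% interval -0.71 to 0.42). Its 4 lowest libraries were Control a (151 CPM), cKO c (173), cKO a (177) and Control b (201), and the next was cKO e (229). By column order these 4 would be the libraries that stand apart. Mir298 ranged from 203 to 378 CPM in Control and from 151 to 280 CPM in cKO, with a log2 fold change of -0.27 ± 0.20 (SE; 95% interval -0.71 to 0.17). The groups overlapped for all 4 rows, and did not for 4 of the 1846 rows tested (0.217%). Mir296 had 2 high Control libraries, a (26.6 CPM) and b (22.8 CPM), and lay between 7.23 and 13.8 CPM in the other 10. By column order these 2 would be Control 1 and Control 2, the highest libraries of miR-296-5p (61.2 and 54.1 CPM). The log2 fold change of Mir296 was -0.51 ± 0.34 (SE, 95% interval -1.24 to 0.23). Leaving out 1 library at a time, the log2 fold change of Mir335 ran from -0.23 to -0.01 (without cKO c), that of Mir298 from -0.32 to -0.10 (without Control a), and that of Mir296 from -0.60 to -0.21 (without Control a).

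Mir483 rested on 6 to 31 reads per library, 78 in Control and 103 in cKO. It ranged from 2.76 to 16.7 CPM in Control, with a median of 5.47, and from 2.89 to 15.7 CPM in cKO, with a median of 5.69. Control b, cKO a and cKO c were the 3 highest, followed by Control a (9.06 CPM) and then Control f (6.63 CPM). By column order the first 4 of these would be the libraries that stand apart, and their part in the Mir483 values was not tested. The groups overlapped over nearly their whole range. The log2 fold change was 0.13 ± 0.54 (SE; 95% interval -1.04 to 1.30, edgeR adjusted p = 0.9999), so neither a doubling nor a halving in cKO lies outside the interval. It was -0.12 without cKO a and 0.52 without Control b. Markers of the choroid plexus, a tissue known for strong Igf2 expression, summed to 18.3 to 143 unscaled CPM per Control library and 15.9 to 518 per cKO library over 5 of 5 genes, none of them at 0 over the 12 libraries. In the 3 libraries highest for Mir483 they summed to 132 CPM (Control b), 518 CPM (cKO a) and 16.4 CPM (cKO c). Of the other 9, Control d had the highest sum, 143 CPM, with Mir483 at 4.1 CPM. Of these marker reads 1828 were of the water channel gene Aqp1 and 34 of Ttr, the defining marker. Control b had 159 reads of Aqp1 and 0 of Ttr, cKO a 576 and 1, and cKO c 36 and 2. The most Ttr reads, 7, were in Control e and in cKO f. The sums therefore mainly follow Aqp1. The part of these marker genes in the Mir483 values was not tested.

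**Figure D3:**
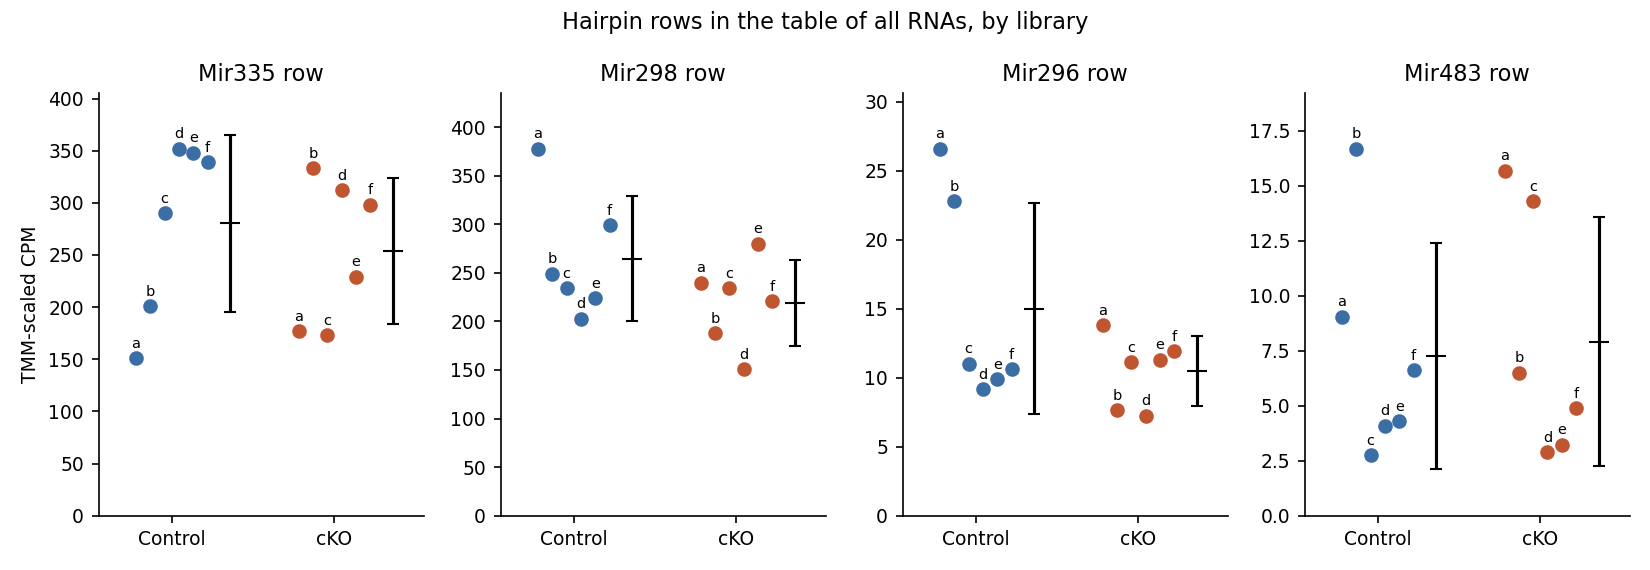
Level of 4 hairpin rows in the table of all RNAs (TMM-scaled CPM, linear axis from 0), 6 libraries per group lettered within the group, with the mean ± SD. Mir483 is highest in Control b, cKO a and cKO c, and the groups overlap in every panel.

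**Figure D4:**
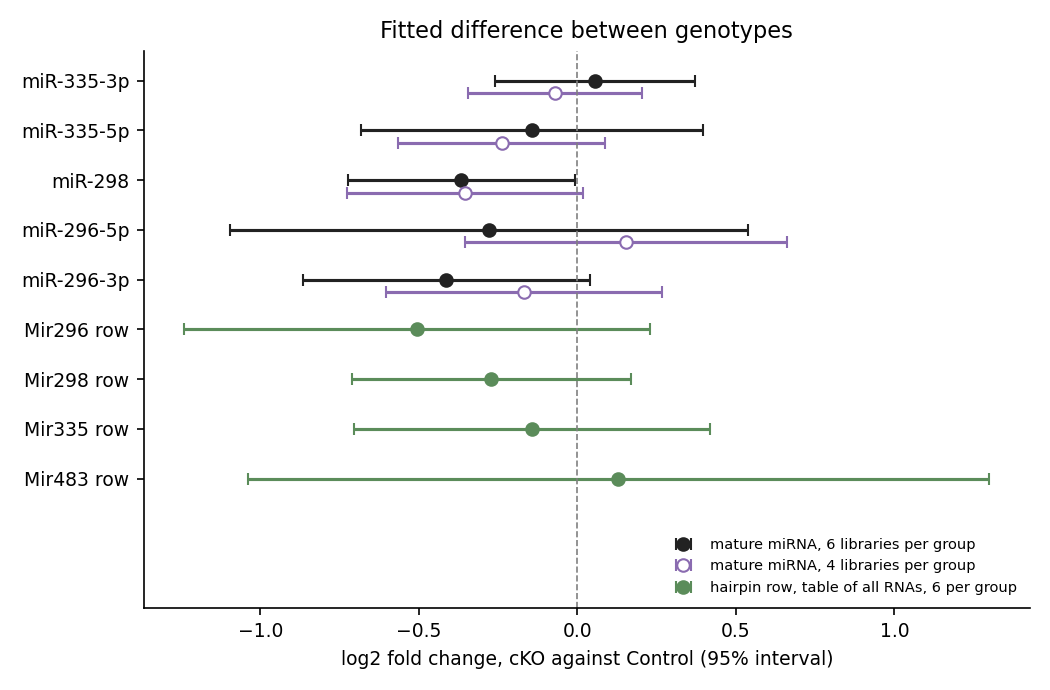
Fitted log2 fold change, cKO against Control, with its 95% interval, for the 5 mature rows (6 libraries per group, and 4 per group without the libraries that stand apart) and for 4 hairpin rows. The hairpin rows were counted in the same libraries and are not a separate measurement. Every interval includes 0 except that of miR-298 with 6 libraries per group (-0.72 to -0.01), which did not pass adjustment.

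The transcripts around these hairpins were thinly covered in small RNA libraries, where they appear as fragments, and none passed the filter on low counts. Mest, which encodes a hydrolase-like protein, had 42 reads in Control and 30 in cKO, and its neighbour Copg2 had 34 and 35. Gnas, which encodes a stimulatory G protein subunit, had 287 and 343 reads over 9 transcript rows, with 18 to 120 per library, and its antisense partner Nespas had 5 and 1. Igf2, a fetal growth factor, had 20 and 44 reads over 3 rows, and its antisense gene Igf2as had 5 and 11. H19 had no row that could be matched and is not analysed here. Whether counting used strand is not given in the sources used here, so overlapping and antisense genes cannot be told apart.

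Among 38 imprinted genes listed, 37 had a matched row, and 9 rows of 8 genes were tested. None was called, with 3 fitted higher and 6 lower in cKO and a median log2 fold change of -0.14 against -0.02 over the 1846 rows. Peg10, a retrotransposon-derived gene, had the smallest p: it ranged from 2.3 to 13.2 CPM in Control and from 0.923 to 6.48 CPM in cKO, with a log2 fold change of -0.97 ± 0.44 (SE; edgeR unadjusted p = 0.0478, adjusted p = 0.9999). Kcnq1ot1, the non-coding RNA of the imprinted domain beside Igf2, had a log2 fold change of -0.16 ± 0.25, and the 2 tested rows of the maternally expressed Meg3 had 0.11 ± 0.35 and 0.15 ± 0.35 (SE).

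No marker miRNA of another cell type was called, and the summed levels of each list overlapped between the groups. Those of choroid plexus and epithelium, with 11 of 12 tested, summed to 3848.9 to 7555.1 CPM in Control and 3519.8 to 8446.4 in cKO. Those of vessel and mesenchyme, with 7 of 8 tested, summed to 13799.2 to 22174.3 and 16179.8 to 23217.5 CPM, and 6 of the 7 were fitted higher in cKO (median log2 fold change 0.17, highest 1.12). Red blood cell markers, 2 of 3 tested, summed to 3627.6 to 17875.5 and 6003.6 to 18139.6 CPM. Oligodendrocyte markers, 4 of 4 tested, summed to 2551.0 to 4365.5 and 2565.3 to 4049.1 CPM, and all 4 were fitted lower in cKO (median log2 fold change -0.25, range -0.58 to -0.09). Microglia markers, 7 of 7, summed to 2823.7 to 5053.5 and 2673.6 to 5122.5 CPM. The median log2 fold change was -0.20 for choroid plexus and epithelium, 0.30 for red blood cells, -0.04 for neurons and -0.00 for microglia. The part of these cell types in the members' values was not tested. In the table of all RNAs, 3 of 3 neuron genes summed to 17.6 to 24.9 unscaled CPM in Control and 18.8 to 31.8 in cKO. These sums rested on 31 to 59 reads per Control library and 31 to 84 per cKO library. The 5 of 5 genes of meninges and fibroblasts summed to 18.9 to 72.2 unscaled CPM in Control and 38.4 to 111 in cKO. Most of these reads were of Col1a1, with 1444 over all libraries, against 252 of Col1a2, 73 of Ogn, 30 of Dcn and 27 of Igfbp2. In bulk tissue fewer cells of a type and less RNA per cell cannot be told apart.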

How the data were processed

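The authors deposited raw read counts of 12 small RNA libraries as 3 tables (miRNAs, misc RNAs and all RNAs), with no normalization per the file headers. The labels' protocols name TRI Reagent extraction, DNase treatment and an Illumina small RNA kit with a gel cut, and the submitters' processing notes name CASAVA; the aligner, annotation and build are not given in the sources used here. The 495 named miRNAs all have a Control mean of 10 or more counts, so rarer miRNAs are not analysed here; 1 nameless row (0.00015% of reads) was left out.

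Whole tables were fitted with edgeR 4.0.16 in R 4.3.3 (filterByExpr, TMM, quasi-likelihood test on group, Benjamini-Hochberg threshold 0.05), after tests on simulated data. DESeq2 1.42.0 and limma 3.58.1 (voom) were alternatives, as were other scalings, filters, the replicate number as a block, parts of the libraries and leaving out each library. Ratios had 0.5 counts added to each count. Profile distances used a prior count of 2. Hairpins were matched by symbol: 26081 of 35230 transcript rows matched. Sequences are RefSeq's and the gene models GENCODE's, both on GRCm38. The text names all members, and of the imprinted genes the hosts, their neighbours and those tested. The members and lists were chosen with earlier results of these data known. P-values measure the spread between libraries, whose source animals are not stated one by one, and intervals and limits on single libraries cover counting error only, as reads carry no molecular identifiers.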

Additional observations from a re-analysis of the deposited data

Results flagged for a closer look

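Of 42 groups of 6 libraries checked for a library far from the others, 2 were picked out, where chance at 1 in 20 gives 2.1. In the first, the log2 ratio of miR-335-5p to miR-335-3p in Control, Control 1 was the lowest at -1.63 and the next library lay at -0.699, a gap of 0.765 of the whole range. In the second, Peg13 in Control, library b was the lowest at 1.75 CPM and the next lay at 5.44 CPM, a gap of 0.657 of the range.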

How the results depend on the processing

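No member was called under any of the alternatives run. Called miRNAs numbered 1, and 2 by DESeq2, but 0 with the replicate block, in replicate numbers 1 to 3 or 4 to 6 alone, scaled to miRNA plus misc RNA reads, without the 4 libraries that stand apart, and without each library in turn (0 to 0). Same-numbered libraries deviated together with correlations from -0.15 to 0.67, so the numbers were not taken as pairs, and with the replicate block no member changed direction. DESeq2 called 10 rows in the table of all RNAs, and leaving out libraries gave 0 to 2. The log2 fold change of miR-298 kept its sign throughout (-0.47 to -0.29 leaving out each library), as did that of miR-296-3p (-0.53 to -0.33). That of miR-296-5p changed sign with voom quality weights (0.05), in numbers 4 to 6 alone (0.21), without the 4 libraries (0.15) and without Control 1 (range -0.47 to 0.02). That of miR-335-5p was 0.13 in numbers 1 to 3 alone. That of miR-335-3p was -0.13 in numbers 4 to 6 alone, -0.0043 with the total of both tables, -0.07 without the 4 libraries and -0.01 to 0.11 leaving out each. Mir483 ran from -0.12 to 0.52. The log2 ratio of miR-298 to miR-296 was 0.09 in numbers 1 to 3 alone and -0.45 without the 4 libraries, and the miR-335 arm ratio ran from -0.35 to 0.03, its highest without cKO 3. The causes were not tested. The lowest counts were those of miR-296-3p (4 to 48 reads per library) and Mir483 (6 to 31).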
